A study of Mus musculus with 6 samples.

Results

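The cells described here are neutrophils of mouse blood in which interferon-response transcripts were low. They were chosen by measured values, from a table of unique molecular identifier (UMI) counts of single cells, where each UMI is a transcript molecule read once. A blood cell was kept when it had at least 500 UMIs and at most 10% mitochondrial UMIs. On the scale of counts per 10000 UMIs of the cell (CP10k), S100a8 plus S100a9 had to reach 100, the granule genes Camp, Ngp and Ltf had to sum to under 50, and Csf3r, Cxcr2, Retnlg, Il1r2 and Msrb1 had to sum to at least 10. The 5 interferon-stimulated genes Ifit1, Ifit3, Isg15, Rsad2 and Oasl2 had to sum to fewer than 5 UMIs. Of 28055 deposited cells 4339 met these conditions, 1282 from young and 3057 from aged blood. Single cells of wild-type mice had been profiled to compare young with aged animals at steady state and after an experimental stroke. The blood came from animals without a stroke and had been sorted into CD11b+ Ly6G+ and CD11b+ Ly6G- cells. Bone marrow of both ages, without a stroke or 24 h after the middle cerebral artery was occluded, had been enriched for Gr1+ and c-kit+ cells. Each of the 6 groups is 1 library, and neither ages nor mouse numbers are in the labels, so no difference between groups could be set against the spread between animals.

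Neutrophils mature in the bone marrow, where they fill their granules in sequence, and leave it when signals through the receptors for G-CSF (Csf3r) and for CXC chemokines (Cxcr2) outweigh the Cxcr4 signal that retains them. In blood they no longer transcribe most granule proteins and carry large amounts of the calcium-binding alarmins S100a8 and S100a9. Type I and type II interferons switch on a shared set of antiviral genes in them through factors that include Irf9 and Irf7, and blood neutrophils differ widely in how far this set is on.

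The interferon limit of the rule rests on 5 such genes, and the bases upstream of 4 of them are shown because they carry the element these factors bind. The sequences are from RefSeq (GRCm38.p6), each the 180 bases before the start site, 5′ to 3′ on the strand of the gene. Capitals mark matches to GAAANNGAAA, a short form of the interferon-stimulated response element, on either strand, and where matches overlap they run together.
Isg15 (chr4:156200819-156200998, minus strand): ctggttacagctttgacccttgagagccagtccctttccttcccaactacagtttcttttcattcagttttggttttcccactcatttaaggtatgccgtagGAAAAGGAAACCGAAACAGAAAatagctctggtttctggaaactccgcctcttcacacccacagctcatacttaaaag
Ifit1 (chr19:34640709-34640888, plus strand): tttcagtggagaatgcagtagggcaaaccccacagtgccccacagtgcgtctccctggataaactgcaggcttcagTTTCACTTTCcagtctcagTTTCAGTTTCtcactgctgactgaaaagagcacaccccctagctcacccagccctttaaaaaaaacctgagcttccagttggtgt
Ifit3 (chr19:34583349-34583528, plus strand): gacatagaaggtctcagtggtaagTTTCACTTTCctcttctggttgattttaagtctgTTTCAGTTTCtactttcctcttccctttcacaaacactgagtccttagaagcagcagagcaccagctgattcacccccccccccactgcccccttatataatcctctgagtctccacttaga
Rsad2 (chr12:26456453-26456632, minus strand): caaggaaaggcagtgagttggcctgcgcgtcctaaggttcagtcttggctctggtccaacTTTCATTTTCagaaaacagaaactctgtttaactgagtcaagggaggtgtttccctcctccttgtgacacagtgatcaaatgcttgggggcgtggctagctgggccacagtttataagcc
Isg15 held 3 overlapping matches, Ifit1 and Ifit3 held 2 each, and Rsad2 held 1. The window of Oasl2, from 250 bases before to 50 after its start, held no such match. Among all 27025 genes of the promoter table, 3.99% had a match in a window of that size. Of the 29 interferon-stimulated genes outside the rule that have an entry there, 15 had a match.

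The 4 markers that define the class were at high levels in both libraries. In counts per 1000000 UMIs of the summed cells (CPM), S100a8 stood at 82048 in young and 85041 in aged blood. Csf3r, the G-CSF receptor, stood at 4440 and 3621 CPM. Msrb1, a methionine sulfoxide reductase that is abundant in mature neutrophils, stood at 4580 and 4333 CPM, and Cxcr2 at 1852 and 1691 CPM. These 4 genes are part of the rule, so their levels describe the cells and test nothing. Of the listed neutrophil genes that the rule did not use, some were abundant too. Mmp9, the gelatinase of neutrophil granules, had 1880 and 2601 CPM, Hdc, which makes histamine, 1573 and 1230 CPM, and the lectin receptor gene Clec4d 1022 and 983 CPM. Others were lower: Mmp8 had 488 and 456 CPM, G0s2 265 and 671 CPM, and Trem1 122 and 117 CPM. Ly6g, the surface antigen of the sort, had 75.1 and 57.0 CPM, with a UMI in 15.2% and 13.5% of members. In cells of monocyte type from the same libraries (45 young, 316 aged), Mmp9 had 18.0 and 19.9 CPM and Clec4d 24.0 and 34.9 CPM, far below the members. These cells were chosen in part by a receptor sum under 10 CP10k. That choice leaves out cells with much neutrophil RNA, so the contrast describes the cells and tests nothing.

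The members held a total of 5128414 UMIs in young and 13350140 in aged blood, with medians of 3902.5 and 4046 UMIs per cell and 1362.5 and 1388 genes per cell. In young blood 207 cells (9.26%) fell below 500 UMIs, while no deposited aged blood cell had fewer than 936. The members made up 63.2% of the young blood cells that passed the filters (Clopper-Pearson 95% interval 61.0% to 65.3%) and 57.2% in aged blood (55.9% to 58.6%), shares that the Ly6G sorts can set. These and all intervals below cover counting error only. Barcodes shared between libraries were few, at 5 to 21 per pair and 8 between the blood libraries, 2 of them among members. RNA of other blood cells was low but not absent. The 10 markers of T cells summed to 43.5 CPM in young and 31.3 in aged members, those of classical monocytes to 388 and 510 (none of the 10 at 0), those of nonclassical monocytes to 1866 and 1961, of which Pglyrp1, a gene of neutrophil granules too, gave 1565 and 1537, those of NK cells to 480 and 214, those of dendritic cells to 337 and 624, and those of erythroid cells to 7219 and 5067 CPM. The erythroid sum was concentrated in a few cells: 10 cells gave 94.9% of the UMIs of the globin gene Hbb-bs in young and 68.4% in aged blood.

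The interferon limit cut a continuous range rather than a gap. The plot of interferon UMIs per cell shows the full range in blood neutrophils. The rule kept 78.7% of the young and 90.8% of the aged blood neutrophils at any interferon level, leaving 347 young and 311 aged cells above the limit. Just inside it, at 3 or 4 UMIs, were 224 young and 253 aged cells, and just outside, at 5 or 6 UMIs, 102 and 123. Among members the sum was 0 in 480 young cells and in 1827 aged cells, which is 29.5% and 54.2% of the neutrophils at any interferon level. The S100 limit took the filtered cells from 2029 to 1631 in young and from 5342 to 3369 in aged blood, but few cells lay near it: 21 young and 44 aged members had an S100 sum of 100 to 200 CP10k, against 23 and 21 cells at 50 to 100. The lowest receptor sum of a member was 19.3 CP10k in young and 10.5 in aged blood, with no cell at 5 to 10, and the highest granule sum was 30.2 and 26.1 CP10k.

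**Figure D1:**
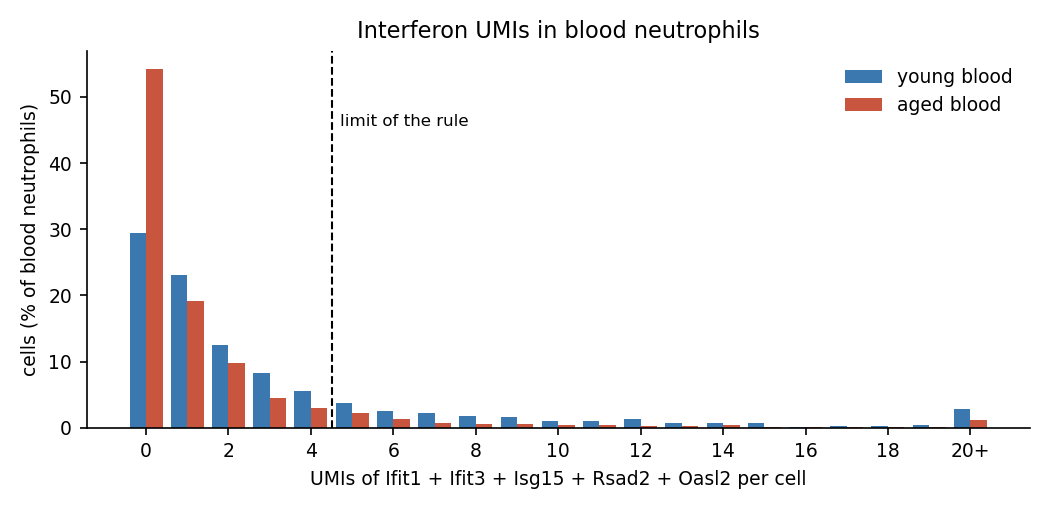
Share of blood neutrophils (y axis, % of the cells that met all limits but the last) by the summed UMIs of the 5 interferon genes of the rule (x axis, with 20 or more in the last class), in young and aged blood, 1 library each. The dashed line is the limit of the rule; 29.5% of young and 54.2% of aged cells had a sum of 0, and 21.3% and 9.23% lay beyond the limit.

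Other interferon-stimulated genes followed the sum of the 5 across the members. Summed over the genes of that list outside the rule, their level was 2356 CPM in young cells with a sum of 0, 3023 at 1 UMI, 3491 at 2, 3967 at 3 and 4784 at 4, against 8683 CPM in cells above the limit. In aged cells the same levels were 1586, 2207, 2669, 3208 and 3690 CPM, and 7053 above the limit. At each step the young level was above the aged one. Ifi27l2a, a mitochondrial interferon-induced gene, went from 603 CPM at 0 to 1342 at 4 UMIs in young and from 303 to 855 in aged cells. Slfn4, a schlafen gene induced by interferon in myeloid cells, went from 213 to 352 CPM in young, with 369 at 3 UMIs, and from 104 to 258 in aged cells. Ifitm1, a membrane protein that blocks the entry of viruses, did not follow the steps: it lay between 1446 and 1875 CPM in the young members and between 605 and 779 in the aged ones. Cxcr2 and the interleukin gene Il1b did not follow them either. Cxcr2 had 1816 CPM in young cells at 0 and 1805 above the limit, and 1724 and 1566 CPM in aged ones. Il1b had 4592 and 4660 CPM in young and 4324 and 3789 CPM in aged cells. Median depth differed little over the steps, from 3784.5 to 4238 UMIs in young and from 3985 to 4284 in aged members.

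S100a9 and S100a8 were the most abundant transcripts of the members. S100a9 had 90238 CPM in young and 87376 in aged cells, and no other gene reached these 2. Next by the mean of both libraries came Gm42418 and Malat1, which are non-coding, Gm42418 at 34757 CPM in young and 25701 in aged cells and Malat1 at 23985 and 29812 CPM. Tmsb4x, which binds actin monomers, had 25162 and 25790 CPM, and Actb 14209 and 11834 CPM. Il1b, the precursor of interleukin-1β, had 4767 and 4296 CPM. The chemokine gene Ccl6 had 2927 and 5099 CPM, and Fth1, the ferritin heavy chain, 5761 and 5548 CPM. Gm42418 overlaps ribosomal RNA sequence, so its level reads more than an mRNA.

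S100a8, S100a9 and Retnlg, all genes of the rule, had the highest variance over mean among genes found in most members. Each cell was thinned to 1000 UMIs, which left out 59 young cells, and the variance of the UMI number was divided by its mean, which is near 1 for counting noise alone and grows with the level of a gene. The ratio was 19.1 in young and 18.7 in aged cells for S100a8, over 20 in both for S100a9, and 9.86 and 11.3 for Retnlg, a resistin-like secreted protein of granulocytes. The 10th percentile, median and 90th percentile of S100a8 were 28, 78 and 131 UMIs in young and 30, 86 and 136 in aged cells. For Retnlg they were 0, 5 and 19 UMIs in young and 0, 6 and 21 in aged cells. Csf3r had 2, 4 and 8 UMIs in young and 1, 4 and 7 in aged cells, with ratios of 1.47 and 1.34. The 4 globin genes, Gzma and Stfa1 also had high ratios, but their UMIs sat in few cells: 94.9% and 77.2% of the young UMIs of Hbb-bs and of the stefin gene Stfa1 came from 10 cells.

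Several genes were higher in members with more Retnlg. Members of each library were ordered by Retnlg, and the highest quartile was set against the lowest (320 young and 764 aged cells per quartile), a description of these cells without a test. Of 2445 genes with at least 50 CPM on average, 9 were at least 2-fold higher (0.368%) and 58 at least 2-fold lower (2.37%) in the highest quartile in both libraries. Stfa1, with most of its young UMIs in 10 cells, went from 30.6 to 398 CPM in young and from 37.3 to 197 in aged cells. Ly6g, the surface antigen used in the sort, went from 37.4 to 149 CPM and from 19.1 to 102 CPM. The stefin gene Cstdc4 went from 406 to 1202 and from 298 to 1012 CPM. Lcn2, the iron-binding lipocalin of specific granules, went from 836 to 2053 and from 748 to 1652 CPM, and Wfdc21, a protease inhibitor of the whey acidic protein family, from 822 to 1922 and from 818 to 1868 CPM. Cd177, an adhesion protein of neutrophils, Chil1, a chitinase-like protein, Ddx60 and Rdh12 complete the 9. The collagenase gene Mmp8 of the granules came close, with log2 ratios of 1.01 in young and 0.96 in aged cells.

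Genes higher in the cells with the least Retnlg were of several kinds. Gngt2, a G-protein subunit, had 331 against 93.8 CPM in young and 392 against 90.5 in aged cells, and Pmaip1, a pro-apoptotic BH3 protein, 102 against 28.6 and 113 against 31.4 CPM. Ribosomal protein genes were among them, with Rpsa at 246 against 70.2 CPM in young and 578 against 107 in aged cells. Cxcr4, the retention receptor, had log2 ratios of -0.74 in young and -0.64 in aged cells, and Il1b -0.73 and -0.51. Genes of other cells were in the same quartile: Ccl5 of NK and T cells had 473 against 12.2 CPM in young cells, Crip1, abundant in monocytes, 172 against 46.6 CPM, and Hbb-bs 7856 against 1352 CPM. The median depth was 3535 UMIs in the lowest and 4359.5 in the highest young quartile, and 3804.5 and 4372 in the aged ones. How far RNA of other cells and depth account for the list was not tested.

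**Figure D2:**
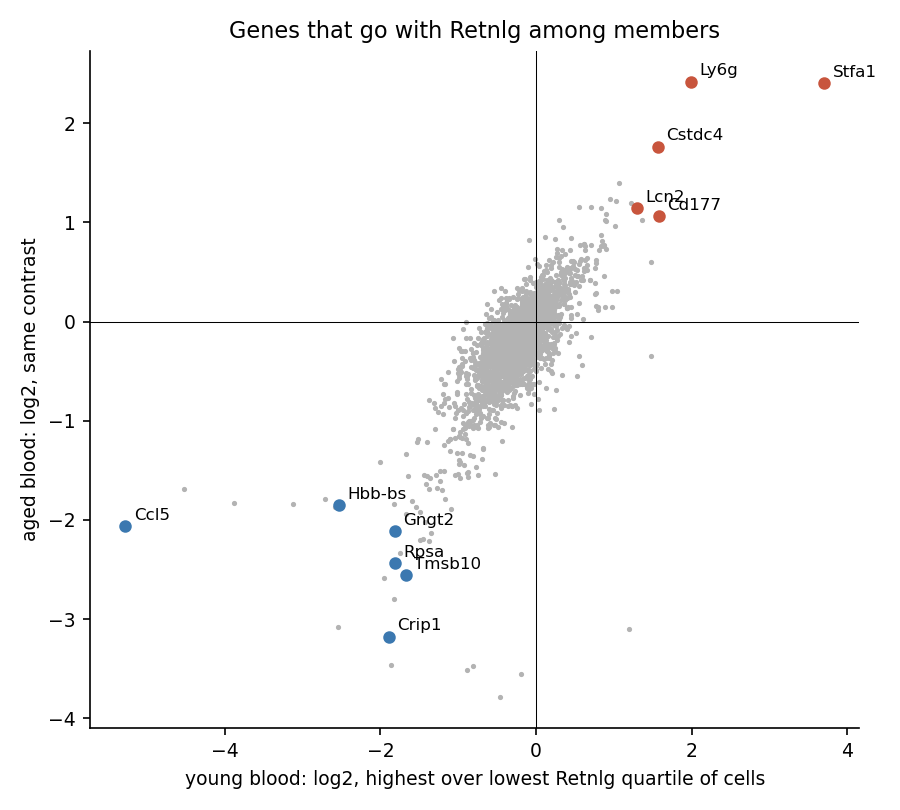
Each point is a gene with a mean of at least 50 CPM; the axes give the log2 ratio of the highest over the lowest Retnlg quartile of members in young (x) and aged (y) blood. Stfa1, Ly6g, Cstdc4, Lcn2 and Cd177 (red) are above 1 on both axes, while Ccl5, Hbb-bs, Crip1, Rpsa, Tmsb10 and Gngt2 (blue) are below -1 on both.

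Between young and aged blood the members differed in few genes by a large amount. For each gene the log2 ratio of aged over young CPM was taken with an exact binomial interval. With 1 library per age this is no test of age, and a gene counts as changed in size when the ratio reached 2-fold at a mean of 50 CPM. Of 2435 genes at that level, 13 were at least 2-fold higher in aged cells (0.534%) and 20 at least 2-fold lower (0.821%), and the median log2 ratio was 0.0046. The higher genes were protein-coding, but 3 of them, Crip1, H2-Ab1 and Cd74, had over 40% of their UMIs in 10 cells of a library. Of the 20 lower ones, 6 are annotated as pseudogenes, 1 is a non-coding RNA (Gm15564), 1 is a gene of the rule (Oasl2), and 2, Gzma and Ccl5, had over 40% of their UMIs in 10 cells. Shares of cells below are again after thinning to 1000 UMIs.

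**Figure D3:**
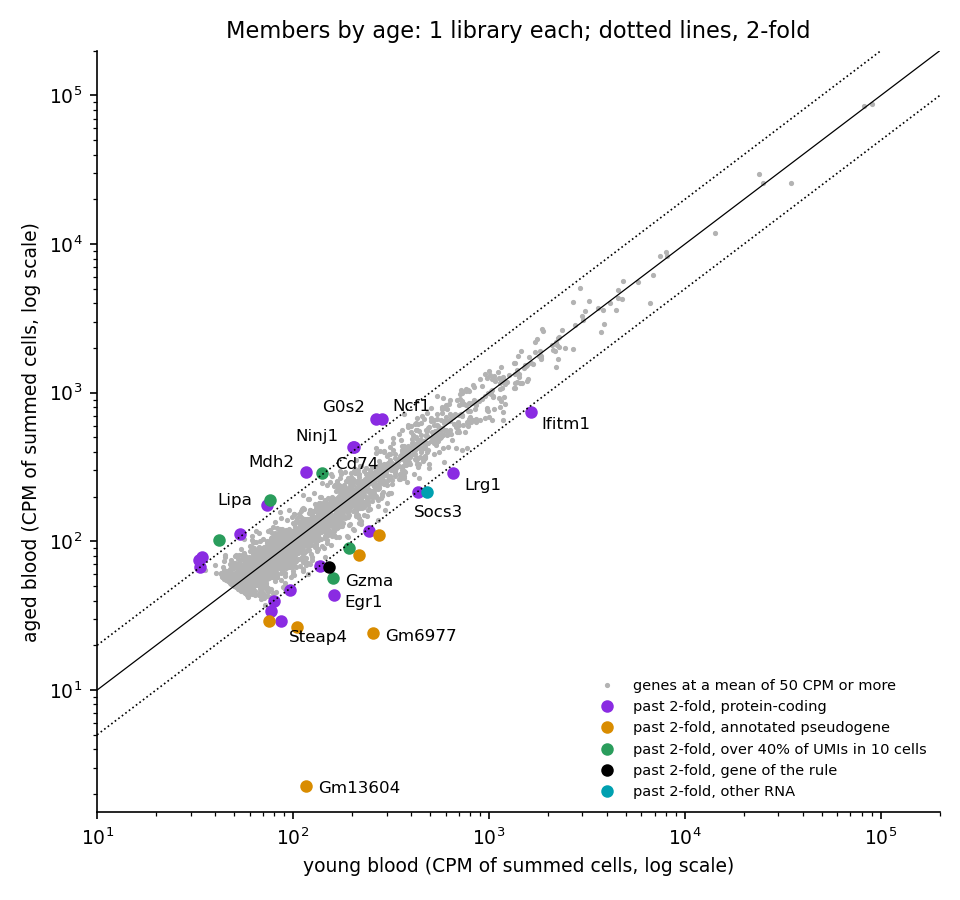
Level of each gene in the members of young (x axis) and aged blood (y axis), in CPM of the summed cells on log scales, for 2435 genes at a mean of 50 CPM or more; dotted lines mark 2-fold. Colours separate the 33 genes past 2-fold by kind; G0s2 lies at 265 and 671 CPM and Gm13604 at 116 and 2.25 CPM.

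G0s2 showed the largest ratio among genes higher in aged members. It encodes an inhibitor of the lipase that breaks down lipid droplets and lies on chromosome 1 from 193272161 to 193273217 (GRCm38). Its level was 265 CPM in young and 671 in aged cells, a log2 ratio of 1.34 (1.26 to 1.42). A UMI was found in 18.8% of young cells (16.7% to 21.1%) and 39.2% of aged cells (37.5% to 41.0%), and without thinning in 37.7% and 71.5%. In monocyte-type cells the shares were 2.27% and 2.85%. Ncf1 (chromosome 5, 134220053 to 134229625), the p47phox subunit that organises the NADPH oxidase, had 283 and 664 CPM, a log2 ratio of 1.23 (1.15 to 1.31), and was found in 21.7% and 47.7% of cells. Mdh2, the mitochondrial malate dehydrogenase, had 117 and 295 CPM (log2 ratio 1.34, 1.21 to 1.46), and Lipa, the lysosomal acid lipase, 73.9 and 175 CPM (1.25, 1.09 to 1.41). Ninj1, a membrane protein that ruptures the plasma membrane in lytic cell death, had 204 and 431 CPM (1.08, 0.99 to 1.18).

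Ccl6 went from 2927 to 5099 CPM, a log2 ratio of 0.80 (0.78 to 0.83) that stays under 2-fold. Gclm and Gstp1, both of glutathione metabolism, had log2 ratios of 1.01 and 1.20 at 67.2 and 78.6 CPM in aged cells. Gstp1 shares 45.7% of the 40-base words at its 3′ end with other genes, so its count is uncertain. Rilpl2 and Pptc7, a mitochondrial phosphatase, had 74.6 and 112 CPM in aged cells against 33.1 and 53.6 in young ones. Apoe, the lipid carrier, had 202 and 432 CPM, but it was found in 40.9% and 65.8% of monocyte-type cells against 10.4% and 17.5% of members. Its log2 ratio in monocyte-type cells was 1.21, against 1.09 in members, where it was 0.72 with an equal weight for each cell. Cd74 and H2-Ab1, genes of MHC class II presentation, had log2 ratios of 1.04 and 1.28, and with an equal weight for each cell 0.25 and 0.57. Both genes are in the dendritic marker list, so its sum of 337 and 624 CPM is no separate evidence on them. Cd74 alone gave 141 and 290 CPM of that sum.

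Among the lower genes, Egr1, an immediate early transcription factor, had 161 CPM in young and 43.7 in aged members. Its log2 ratio was -1.89 (-2.04 to -1.73), and it was found in 10.9% and 3.99% of cells. Steap4, a metalloreductase, had 86.8 and 28.9 CPM (log2 ratio -1.59, -1.79 to -1.39). Lrg1, a secreted leucine-rich glycoprotein of neutrophil granules, had 659 and 288 CPM (-1.19, -1.26 to -1.13) and was found in 39.2% and 20.8% of cells. Ifitm1 (chromosome 7, 140967221 to 140969825) had 1631 and 736 CPM (-1.15, -1.19 to -1.10), in 49.0% and 31.4% of cells. Socs3, a feedback inhibitor of G-CSF and interleukin-6 signalling, had 434 and 216 CPM, and Hcar2, the niacin receptor, 137 and 68.2 CPM, both close to the 2-fold line at log2 ratios of -1.003 and -1.01. The glycerol kinase gene Gk and Amer2 also lay past it, at -1.02 and -1.01. Gzma, a granzyme of NK cells, came to a log2 ratio of -0.41 when the 10 richest cells of each library were left out, and Ccl5 to -0.03.

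The lowest ratios of all belonged to processed pseudogenes, and they moved the same way in other cells of the same libraries. Gm13604 had 116 CPM in young and 2.25 in aged members (log2 ratio -5.69) and 628 and 4.03 CPM in monocyte-type cells. Gm6977 had 254 and 24.3 CPM in members (-3.39) and 112 and 14.1 CPM in monocyte-type cells. Of the 22 annotated pseudogenes at 50 CPM or more, 15 had ratios below 0 in members, with a median of -0.25, and 18 of the 21 that could be compared were below 0 in monocyte-type cells. The pseudogene Gm10736 rose in monocyte-type cells, from 1117 to 1872 CPM. Processed copies share sequence with their parent genes, so that a 3′ read can be given to either: Gmfg-ps shares 74.5% of its 3′ words with other genes and Gpx4-ps2 88.4%. Gpx4-ps2 went from 274 to 110 CPM while Gpx4, a peroxidase that protects membrane lipids, went from 503 to 648 CPM. Gmfg-ps went from 75.3 to 28.9 CPM while Gmfg went from 1078 to 1205. Ftl1-ps1, annotated as protein-coding, went from 245 to 118 CPM, but Ftl1 did not rise, with 4146 and 4038 CPM. Hmgb1-ps8 and Tpt1-ps3 had log2 ratios of -0.21 and -0.13, and Hmgb1 and Tpt1 0.40 and 0.38. Ribosomal protein genes were higher in the aged members. All 30 of the list were above 0 in aged members, from 0.14 (Rps9) to 0.83 (Rpl6), the median being 0.55 and the highest under 2-fold, and 29 of 30 were above 0 in monocyte-type cells, with a median of 0.14. Whether the young and aged blood reads were assigned to copies in the same way was not tested, and an effect of age on these genes cannot be told apart from one of the library.

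Several of the protein-coding differences were also present in monocyte-type cells. There the log2 ratio was 1.02 for Ninj1 (0.60 to 1.47), 0.90 for Lipa (0.53 to 1.29), 0.78 for Mdh2 (0.33 to 1.26), 0.61 for Ccl6 (0.47 to 0.76) and -1.40 for Oas3 (-2.02 to -0.74). For G0s2 it was 1.44 (0.27 to 2.92), from 6 and 113 UMIs, at 11.99 and 32.5 CPM. For Ncf1 it was 0.28 with an interval from -0.08 to 0.66, below the 1.23 of the members. Gstp1 was at -0.04 (-0.34 to 0.28) in monocyte-type cells, against 1.20 in members. The intervals of Gclm (0.50), Socs3 (-0.49) and Gk (0.18) included 0 as well. Egr1 (3 and 37 UMIs), Steap4 (0 and 1) and Lrg1 (5 and 10) had too few UMIs there to compare.

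Interferon-stimulated genes were lower in the aged members as a group. Of the 41 genes of the list 12 reached 50 CPM outside the rule. All 12 were below 0, with a median of -0.76 beside a median of 0.0046 over all genes, and 1 of them, Oas3, was past 2-fold, with -0.81 in cells with an interferon sum of 0. Oas3, which makes the activator of RNase L, had 77.4 CPM in young and 34.1 in aged cells. Slfn4 had 272 and 139 CPM (log2 ratio -0.97) and Ifi27l2a 774 and 424 CPM (-0.87). Slfn1 stood nearest to 0, with 643 and 529 CPM (-0.28). The rule limits the same response, so this difference lies within the range below its limit. In monocyte-type cells, to which the interferon limit was not applied, all 12 genes were below 0 as well, with a median of -0.83. Interferon receptor and signalling genes moved less: 8 were counted, 7 were below 0 and the median was -0.14.

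Most listed genes of respiration were above 0 in aged members. Of 10 NADPH oxidase and redox genes 7 were above 0, with a median of 0.26. That is a short list to set beside 1180 of 2315 protein-coding genes above 0 at 50 CPM or more. Ncf1 was past 2-fold, Cybb, the catalytic gp91phox subunit, had 85.4 and 158 CPM (0.88), and Ncf4 193 and 259 CPM (0.42). Cybb was found in 59.1% and 65.8% of monocyte-type cells against 5.07% and 9.49% of members, and 41.8% of its young UMIs came from 10 cells. Of 23 genes of oxidative phosphorylation 20 were above 0, the median being 0.22 and none reaching 2-fold, while in monocyte-type cells 5 of 23 were above 0. Of 14 glycolysis genes 13 were below 0, with a median of -0.12. Mmp9 had 1880 and 2601 CPM (0.47), and Lyz2, the lysozyme of neutrophils and monocytes, 2673 and 4071 CPM (0.61), with 71.1% and 80.3% of cells. Lyz2 was found in 86.4% and 84.2% of monocyte-type cells.

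Beside these, 1135 of 2315 protein-coding genes at 50 CPM or more were below 0 in aged members. Of 19 release and retention receptors 11 were below 0, with a median of -0.12 and none past 2-fold. Selplg, the ligand of P-selectin, had 1138 and 807 CPM (-0.50), and Csf2rb, the shared receptor chain for GM-CSF and interleukin-3, 382 and 252 CPM (-0.60). Of 22 pattern recognition, Fc and lectin receptors 15 were below 0; Tlr2 had 82.3 and 45.5 CPM (-0.86) and Fcgr4, an IgG receptor, 101 and 154 CPM (0.61). Of 20 immediate early genes 15 were below 0, with a median of -0.22. Junb, an AP-1 subunit, had 3846 and 2911 CPM (-0.40) and Fos 2181 and 1919 CPM (-0.18), while Atf3 had 52.6 and 81.0 CPM (0.62). The list named for alarmins, stefins and protease inhibitors also holds other genes, among them Lrg1, Ifitm1 and Ifitm2. Of its 18 genes counted 16 were below 0, with a median of -0.33. The 2 past 2-fold were Lrg1 and Ifitm1, which are not of the kinds that name the list. Il1rn, the interleukin-1 receptor antagonist, had 223 and 132 CPM (-0.76), while Il1b was at -0.15. Survival and death genes were spread around 0 (7 above and 6 below), with Mcl1, which keeps neutrophils alive, at 2228 and 2089 CPM.

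**Figure D4:**
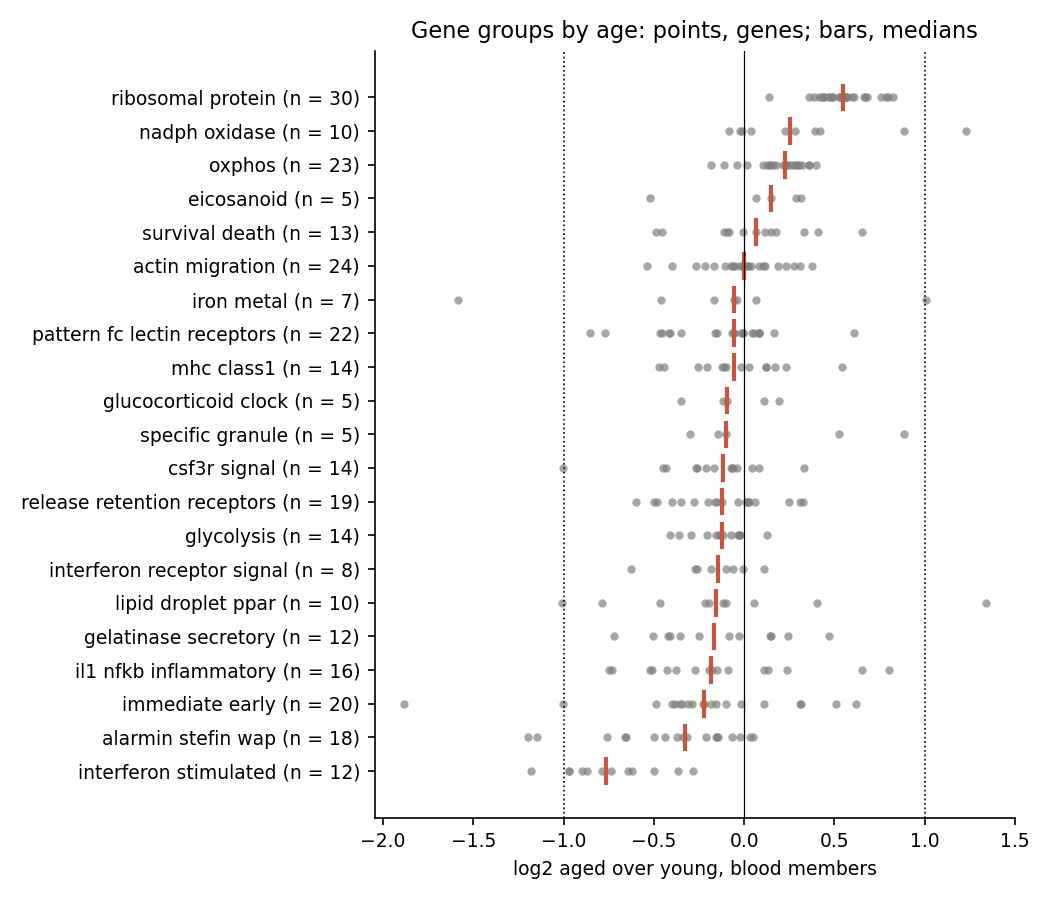
Log2 ratio of aged over young CPM in the blood members (x axis) for the genes of each list at a mean of 50 CPM or more and outside the rule (y axis, with their number); grey points are genes, red bars medians and dotted lines 2-fold. The ribosomal protein genes have a median of 0.55 and the interferon-stimulated genes one of -0.76.

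Blood was next set against marrow. The same expression limits kept 379 and 380 cells in young and aged steady-state marrow and 489 and 259 after stroke, but these were not neutrophils alone. They had Elane, a protease of early granules, at 163 to 4548 CPM and Mpo at 49.3 to 3204, while both were at 0 to 0.150 CPM in blood, and their classical monocyte markers summed to 2952 to 8711 CPM. On these sums 9455 of 12739 genes (74.2%) passed edgeR's quasi-likelihood test, 4605 higher (36.1%) and 4850 lower (38.1%) in blood, a comparison that mixes cell types. A wider gate was therefore set after the data were seen. It has no granule limit, a receptor sum of at least 50 CP10k, and limits on monocyte, azurophil, cell cycle and antigen presentation genes. It held 1222 and 2921 blood cells, of which 1221 and 2920 were members, and 160, 131, 249 and 261 marrow cells (young and aged at steady state, young and aged after stroke), of which 32, 25, 115 and 52 met the rule. The granule gene Camp had 14136 to 29912 CPM in these marrow cells and 0 and 15.3 in blood. The comparison thus sets blood cells nearly without Camp against marrow cells rich in it. Other granule genes were present in the blood cells, such as Lcn2 at 1469 and 1222 CPM and Mmp9 at 1907 and 2710 CPM. The model has tissue context and age as terms and 2 residual degrees of freedom. Its p-values set tissue differences against their variation between ages, not between mice. That variation is not estimated from each gene alone, because edgeR moderates it with information from all genes. The tissue coefficient of the model is blood over steady-state marrow. All blood-marrow fold changes, p-values and counts of passing genes refer to that contrast, while the CPM ranges of marrow include the libraries after stroke. The sorts differed between blood and marrow, so the tissue and the sort cannot be told apart.

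With the wider gate 4846 of 9401 genes (51.5%) passed at an adjusted p of 0.05. Against steady-state marrow 2446 were higher (26.0%) and 2400 lower (25.5%) in blood. Immediate early genes and Il1b were among the genes with the highest change. Il1b had 4827 and 4490 CPM in young and aged blood and 62.9, 117, 147 and 60.1 in young and aged marrow at steady state and after stroke. The groups did not overlap, and the log2 fold change of Il1b was 5.69 ± 0.40 (edgeR adjusted p = 3.08e-06). Here and below, the value after ± is the absolute log2 fold change divided by the square root of the F statistic of the test. It stands in for a standard error, which the test does not give. Fos had 2207 and 1982 CPM against 21.7 to 48.3 with a log2 fold change of 6.32 ± 0.25 (edgeR adjusted p = 1.36e-07). Dusp1, a phosphatase that ends MAP kinase signals, had 2475 and 2079 CPM against 34.2 to 147, and Slc7a11, the cystine importer, 773 and 865 CPM against 9.12 to 22.5. Clec7a, the receptor for fungal glucans, had 1431 and 1309 CPM against 33.1 to 89.4. The globin genes had the highest log2 changes, with Hbb-bs at 3689 and 2059 CPM in blood against 2.25 to 6.84 in marrow. The ferritin light chain gene Ftl1 had a log2 fold change of 5.995 ± 0.24 over steady-state marrow (edgeR adjusted p = 1.44e-07). It had 52.8 and 79.8 CPM in steady-state marrow, 876 and 780 in stroke marrow, and 4196 and 4104 in blood. It shares 80.2% of its 3′ words with other genes, so that its count is uncertain.

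Several genes were far lower in blood. Chil3, a chitinase-like protein of developing neutrophils, had 4.698 and 9.41 CPM in blood and 2156 to 3658 in marrow, a log2 fold change of -8.21 ± 0.29 (edgeR adjusted p = 1.13e-07). Itgb2l, an integrin chain, had 2.86 CPM in both blood libraries and 264 to 301 in marrow. Serpinb1a, an inhibitor of neutrophil proteases, had 8.58 and 6.13 against 474 to 697 CPM, and Cybb 64.3 and 104 against 838 to 1811 CPM. Anxa3, Olfm4, Abca13, Adpgk and Inhba were lower in blood by 4.66 to 6.45 on the log2 scale.

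By list, 20 of 25 interleukin-1 and NF-κB genes tested were higher and none lower in blood, with a median of 1.79 beside 0.04 over all genes. Of 24 immediate early genes 20 were higher and 1 lower (median 2.78), and of 25 pattern recognition and lectin receptors 20 were higher and 2 lower (1.46). Cebpb, a factor of emergency granulopoiesis, had 1283 and 1310 CPM in blood against 110 to 329 in marrow. Of 29 interferon-stimulated genes outside the rule 15 were higher and 3 lower (0.94), with Ifi27l2a at 771 and 398 CPM against 30.8 to 152. The wider gate kept the limit of fewer than 5 interferon UMIs, so this contrast is between cells cut on the same response. Median depth was 4850 to 9365 UMIs in its marrow cells and 3915.5 and 4022 in blood, so the limit was stricter per UMI in marrow. Among 24 release and retention receptors 12 were higher and 10 lower: Cxcr4 had 424 and 398 against 77.8 to 108 CPM and Selplg 1153 and 827 against 190 to 384, while Cd177 had 47.6 and 56.8 against 637 to 1091 CPM. Of 10 specific granule genes outside the rule 8 were lower and 1 higher, and Mmp8 had 506 and 472 against 2771 to 3498 CPM. Of 30 ribosomal protein genes 25 were lower and 2 higher (-1.06). Csf3r and Cxcr2, which the gate used, had 4510 and 3763 and 1888 and 1763 CPM in blood against 221 to 471 and 462 to 733 in marrow.

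**Figure D5:**
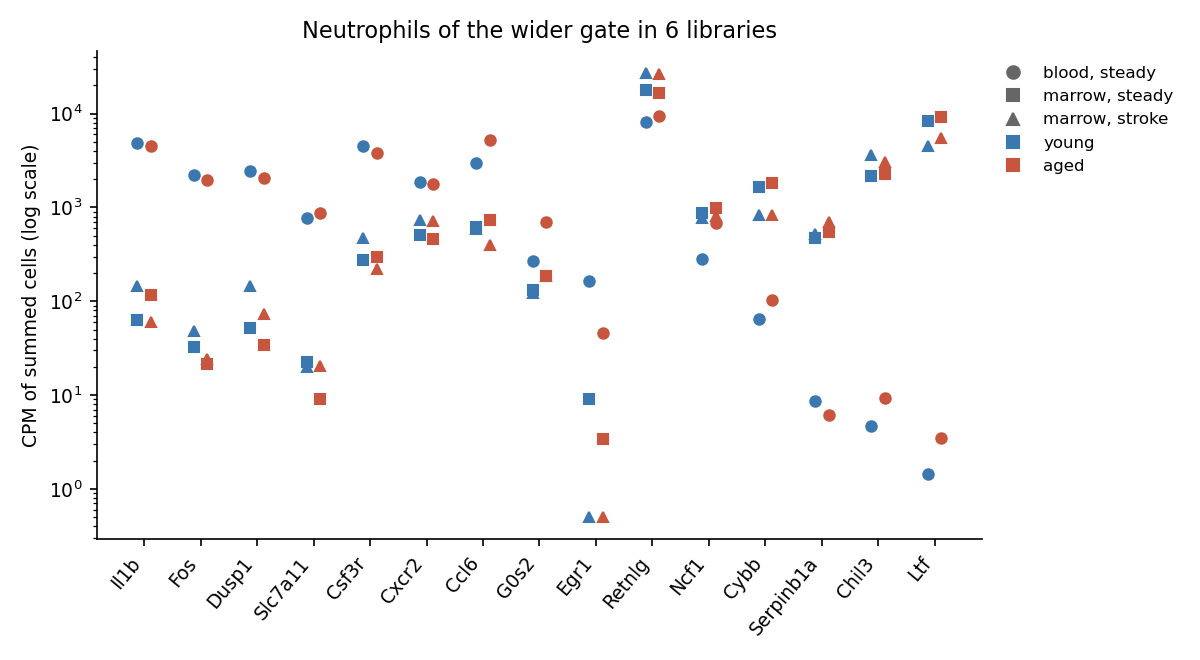
Level of 15 genes in the summed cells of the wider gate (y axis, CPM on a log scale, values under 0.5 drawn at 0.5) in each of the 6 libraries; circles are blood, squares steady-state marrow, triangles marrow after stroke, blue young and red aged. Il1b, Fos, Dusp1 and Slc7a11 lie higher in both blood libraries than in all 4 marrow libraries, and Cybb, Serpinb1a, Chil3 and Ltf lower.

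The count of genes that passed for age over the 3 contexts in the same model depended on the libraries fitted. It came to 19 to 105 under the rule and 8 to 89 in the wider gate when any 1 of the 6 libraries was left out, against 4 and 3 with all of them. With the rule's own limits 4 of 12739 genes (0.0314%) passed, 3 higher in aged cells (0.0235%), the platelet gene Pf4, the MHC class II gene H2-Eb1 and the macrophage gene C1qb, and 1 lower (0.00785%), the plasma cell gene Jchain. With the wider gate 3 of 9401 passed (0.0319%), 1 higher (0.0106%) and 2 lower (0.0213%), at an adjusted p of 0.0400 each (edgeR). Egr1 was lower in aged cells by 1.83 ± 0.22 on the log2 scale, with 166 and 45.6 CPM in blood. In steady-state marrow it had 8.99 and 3.42 CPM from 8 and 3 UMIs, with a counting interval of the log2 ratio from -3.94 to 0.66. After stroke it had 0.456 and 0.376 CPM, where 1 UMI was counted in each library. The marrow counts of Egr1 are thus too low to show a difference apart from blood. Ifi27l2a was lower by 1.25 ± 0.16, with 771 and 398 CPM in blood, 152 and 46.7 in steady-state marrow and 86.2 and 30.8 after stroke. Prss34, a protease of basophils, was higher by 3.01 ± 0.36 but was at 0 in both blood libraries. Steap4 had a log2 change of -1.78 ± 0.26 that did not pass (adjusted p = 0.0921, edgeR), and G0s2 one of 0.93 ± 0.17 (adjusted p = 0.187, edgeR). G0s2 was higher in the aged library of each context, with 133 and 185 CPM in steady-state marrow and 121 and 187 after stroke.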

How the data were processed

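The deposited tables hold UMI counts per gene and cell as whole numbers, not normalized, for 6 libraries. The submitters' processing notes name featureCounts 1.6.4, STAR 2.5.3a, Subread, UMI-tools, Cell Ranger 3.0.2 and the build GRCm38 (mm10), without saying which tool made which count. Not given in the sources used here are the counting of reads with several matching genes and the use of strand. The members and the gene lists were chosen with earlier results of these data known.

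Counts were summed over the chosen cells of each library and scaled to CPM. Age ratios in blood carry exact conditional binomial (Clopper-Pearson) 95% intervals and no test. The 6 libraries were fitted with edgeR 4.0.16 (TMM scaling, filterByExpr, quasi-likelihood test, Benjamini-Hochberg adjustment over all genes tested, threshold 0.05) in R 4.3.3, with DESeq2 1.42.0 as an alternative. The fitting script was tested on simulated counts. Monocyte-type cells had at least 30 CP10k of Csf1r, Ly6c2, Ctss, Fn1, Ccr2 and F13a1 and under 10 of the receptor sum. No cell was removed as a doublet; a score from simulated doublets put 1.92% of the young and 1.65% of the aged blood cells over 0.25, and also only 16.6% and 40.0% of the simulated doublets. Leaving those cells out was an alternative.

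Named genes were those with the largest interval bound nearest 0 (15 per direction) in the age ratio, the 12 per direction with the largest blood-marrow change and no overlap, all passing genes of the age test, and the 4 most abundant of each list. They also include the 20 most abundant genes and the 10 most variable. Other list members, the remaining genes past 2-fold, the Retnlg quartiles and the wider gate were chosen after their values were seen. Some results are not reported here. Shared 3′ words are 40-base stretches of the last 400 bases of a gene's transcripts (GENCODE) that also occur in another gene; 98.7% of the gene names matched the annotation.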

Additional observations from a re-analysis of the deposited data

Results flagged for a closer look

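The age ratios of 6 named genes had opposite signs in blood and in a marrow context, in the wider gate, with counting intervals that lay beyond 0.1 on opposite sides of 0. Opposite signs with intervals nearer to 0, as for Crip1 (0.50 in blood, -0.47 after stroke), are not listed. Each value rests on 1 library per age, and the difference between contexts was not tested. After stroke, the log2 ratio of aged over young marrow cells was -0.90 for Ninj1 (-1.37 to -0.44) against 1.10 in blood, and -0.57 for Ccl6 (-0.69 to -0.45) against 0.82 in blood. In the same libraries it was 0.23 for Lrg1 (0.16 to 0.31) against -1.18 in blood, and 1.20 for the pseudogene Rps10-ps2 (0.29 to 2.19) against -2.06 in blood. At steady state Ifitm1 had 1.32 in marrow (1.02 to 1.63) against -1.11 in blood, and Ccl5 had 1.00061 (0.67 to 1.34) against -0.99.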

How the results depend on the processing

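The number of genes at least 2-fold higher in aged members moved from 13 to 73 at a mean of 10 CPM, to 8 in the wider gate, to 25 without the 10 richest cells of each gene (a larger share of the young cells) and to 8 with equal weight per cell; the number lower moved from 20 to 55 at 10 CPM. The split of higher against lower was 13 to 20, or 39.4% higher, and turned to 64.1% without the richest cells (14 lower) and 57.0% at 10 CPM; it was 24.3% without the interferon limit (9 higher, 28 lower) and 27.6% with equal weight per cell. Of the 33 genes, 23 remained past 2-fold in cells with an interferon sum of 0, 23 in the wider gate, 25 with equal weight per cell and 27 without the richest cells, and none of them changed direction under the alternatives run. Among the other named genes, Hbb-bs went from -0.55 to 2.09 without its 10 richest cells. Without the interferon limit the rule kept 80.3% of young and 63.0% of aged blood cells. For blood against marrow the wider gate gave 4846 genes instead of 9455; leaving out each library in turn gave 7955 to 10156 under the rule and 3111 to 5508 in the wider gate, the lowest without young steady-state marrow. The 4 genes that passed for age under the rule became 2 with DESeq2 size factors, 41 without a filter on low counts, 106 in the 4 steady-state libraries, 2 without the interferon limit, 1 with a granule sum under 10 CP10k, 20 without doublets and 19 to 105 with a library left out. In the wider gate the 3 became 21 in the steady-state libraries and 8 to 89 with a library left out, the highest without aged marrow after stroke. So the count of age genes over contexts depends on which libraries enter the fit; the cause was not tested. A library left alone in a context is assumed to vary like the others. No paired analysis was possible because the labels carry no replicate numbers. Depth limits shares of cells: G0s2 was found in 27.3% of young members when cells were thinned to 2000 UMIs, against 18.8% at 1000.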

Other observations

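Genes outside the comparisons above also differed little between the ages. All 24 genes of actin dynamics and migration were counted, 12 of them above 0 and 12 below, with a median log2 ratio of aged over young of 0.0015. Of 14 MHC class I genes 6 were above 0, with a median of -0.06, and of 14 genes of G-CSF receptor signalling 3 were above 0, with a median of -0.12 and Socs3 past 2-fold. In blood against marrow, with the wider gate, Socs3 had 440 and 224 CPM in blood and 6.74 to 42.4 in marrow, and Mcl1 2260 and 2147 CPM against 371 to 502. Pla2g7, which breaks down platelet-activating factor, had 1146 and 1289 CPM in blood against 28.5 to 247 in marrow, while Lta4h, which makes leukotriene B4, had 26.6 and 25.5 against 153 to 238. Reads of pseudogenes made up 0.998% of the members' UMIs in young and 0.829% in aged blood, and those of ribosomal protein genes 3.87% and 5.30%.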
